A study of Mus musculus with 5 samples.

Results

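Myeloid cells and granulocyte precursors made up 83 of the 23398 barcodes that passed the filters, a share of 0.355% (exact 95% interval 0.283 to 0.440%). The filters were at least 1000 unique molecular identifiers (UMIs, 1 per captured RNA molecule), 300 or more genes and no more than 10% of UMIs from mitochondrial genes, which 23398 of 25623 barcodes met. A member had at least 2 UMIs of Tyrobp and at least 2 UMIs of at least 2 of the 7 genes Lyz2, Elane, Prtn3, Ctsg, F13a1, Lrmda and Mcpt8. Members were then separated by Elane or Prtn3 (neutrophil precursors), F13a1 or Csf1r (monocytes) and Mcpt8 (basophils). All of these genes chose the cells, so their levels are given as a description. The study profiled CD4 T cells of OT-II mice, whose transgenic receptor recognises an ovalbumin (OVA) peptide on MHC class II, by droplet sequencing of RNA 5′ ends. The T cells were cultured overnight with antigen-presenting cancer-associated fibroblasts (apCAFs) of the rKPC clone and OVA, with rKPC apCAFs and DMSO, with sKPC apCAFs and OVA, with sKPC apCAFs and DMSO, or alone. apCAFs had been sorted from mouse pancreatic tumors, and the T cells came from naive OT-II spleen by negative selection, which is meant to remove other cells. Whether a member came from spleen or tumor cannot be told apart, and mouse ages, the sort gate and any pooling of animals are not given in the sources used here. Each condition had 1 sample.

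Monocytes, neutrophils and basophils arise from shared progenitors in the bone marrow and, under stress, in the spleen. Neutrophil precursors fill their primary granules with the serine proteases neutrophil elastase (Elane), proteinase 3 (Prtn3) and cathepsin G (Ctsg) and with myeloperoxidase (Mpo), and later make lactoferrin (Ltf) and S100a8 with S100a9. Monocytes express the macrophage growth factor receptor Csf1r and the transglutaminase subunit F13a1, and mouse basophils the proteases Mcpt8 and Prss34 and the IgE receptor chain Fcer1a. Tyrobp is the adaptor through which many myeloid receptors signal, and Lyz2 encodes lysozyme.

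The granule protease genes lie in gene clusters. In GENCODE M21 on GRCm38, Prtn3 occupies chr10:79874476-79883174 and Elane chr10:79886247-79888215, both on the plus strand and 3073 bases apart. Mcpt8 occupies chr14:56082166-56085273 and Ctsg chr14:56099881-56102574, both on the minus strand and 14608 bases apart. The 300 bases around the RefSeq start of each gene (GRCm38.p6) are shown because Elane, Prtn3 and Mcpt8 define the granulocyte classes below and Ctsg lies near Mcpt8. Elane was taken from chr10:79886062-79886361 and Prtn3 from chr10:79879417-79879716 on the plus strand, and Ctsg from chr14:56102525-56102824 and Mcpt8 from chr14:56085148-56085447 on the minus strand. Capitals mark letters that match a PU.1-type motif (GAGGAA) or a RUNX-type motif (TGTGGT) on either strand.
Elane: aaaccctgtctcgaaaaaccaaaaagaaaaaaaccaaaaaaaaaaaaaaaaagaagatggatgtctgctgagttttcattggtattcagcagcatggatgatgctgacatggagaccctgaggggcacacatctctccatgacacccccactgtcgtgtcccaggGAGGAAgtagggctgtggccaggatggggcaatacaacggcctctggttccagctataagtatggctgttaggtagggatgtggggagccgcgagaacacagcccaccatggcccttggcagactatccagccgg
Prtn3: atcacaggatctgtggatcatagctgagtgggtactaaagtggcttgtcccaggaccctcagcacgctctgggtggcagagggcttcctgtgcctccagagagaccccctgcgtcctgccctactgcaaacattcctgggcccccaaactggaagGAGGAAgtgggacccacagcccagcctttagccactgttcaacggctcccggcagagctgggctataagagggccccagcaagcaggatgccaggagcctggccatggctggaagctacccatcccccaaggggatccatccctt
Ctsg: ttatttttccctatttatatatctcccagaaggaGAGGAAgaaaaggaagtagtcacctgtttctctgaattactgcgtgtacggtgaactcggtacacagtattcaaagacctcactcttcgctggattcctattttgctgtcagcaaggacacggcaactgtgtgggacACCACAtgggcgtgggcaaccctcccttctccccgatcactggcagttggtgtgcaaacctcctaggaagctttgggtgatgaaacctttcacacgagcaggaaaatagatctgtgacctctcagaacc
Mcpt8: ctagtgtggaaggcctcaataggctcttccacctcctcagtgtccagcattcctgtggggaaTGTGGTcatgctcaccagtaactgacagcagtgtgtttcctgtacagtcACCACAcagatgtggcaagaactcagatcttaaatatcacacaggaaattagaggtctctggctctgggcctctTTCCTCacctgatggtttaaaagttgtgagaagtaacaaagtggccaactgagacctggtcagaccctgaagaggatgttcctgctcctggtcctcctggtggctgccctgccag
Each of the 4 windows held 1 PU.1-type match, as did 28.1% of the 32544 RefSeq promoters of this length. A RUNX-type match was found once in the Ctsg window and at 2 places in the Mcpt8 window, against 16.7% of all promoters with at least 1. No match to a C/EBP-type motif (TTGCNNAA, in 10.8% of promoters) or a GATA-type motif (AGATAA or TGATAA, in 18.5%) was found in these windows. The matched motifs did not overlap, and a match describes the letters only.

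The labels tie 2 samples to one deposited matrix and 3 to the other, but the barcodes carried 3 library suffixes in the first (called Ga, Gb and Gc here) and 2 in the second (Ha and Hb). How suffixes match samples is stated in none of the sources used here. The 5 libraries were therefore left unassigned, and no culture condition was compared. Ga held 11 members among 5372 barcodes (0.205%), Gb 18 among 3160 (0.570%), Gc 25 among 6564 (0.381%), Ha 16 among 4286 (0.373%), and Hb 13 among 4016 (0.324%). Every library therefore held members. The exact intervals of Ga (0.102 to 0.366%) and Gb (0.338 to 0.899%) overlapped only between 0.338 and 0.366%. Such an overlap does not show that the shares are alike, and they were not tested against each other. Levels are given as CPM, the UMIs of a gene or list summed over a set of cells and scaled to 1000000 UMIs of those cells. Ratios against 0 UMIs were set at a floor of 3 UMIs and are lower bounds. Intervals here cover counting error only. They treat cells or UMIs as independent, so they leave out differences between cultures and, for UMIs, between cells.

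Members were large profiles. They held a median of 36200 UMIs (9919 to 134332) and 6118 genes, against 8378.5 UMIs and 2882 genes in the 23196 other barcodes with at least 2 of 6 T cell genes, called T-marker barcodes. The member rule asks for at least 2 UMIs per gene, which deeper barcodes reach more easily, and its part in this difference was not tested. Mitochondrial UMIs made up a median of 3.15% in members and 1.94% in T-marker barcodes. No member barcode sequence recurred in another library, although any pair of libraries shared 2 to 14 barcodes. The rule left 17 members just inside it, with 2 of the 7 genes, and these held 7 to 104 Tyrobp UMIs (median 41). Just outside were 26 barcodes with Tyrobp and 1 of the 7 genes, with 2 to 48 Tyrobp UMIs (median 9), and 14 barcodes with at least 2 of the 7 genes but 0 or 1 Tyrobp UMI. Median depths were 28853 UMIs in the 17 members, 15470 in the 26 barcodes and 25558.5 in the 14. Of the 7 genes, Lrmda, named for melanocyte differentiation, was the only one with a UMI in every member, at 2 to 222 UMIs.

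Class genes overlapped within cells. F13a1 or Csf1r alone marked 32 members, Elane or Prtn3 alone 8 and Mcpt8 alone 4, while 34 held genes of more than 1 class at 2 or more UMIs and 5 held none. Of the 34, 25 combined Elane or Prtn3 with F13a1 or Csf1r, 4 combined F13a1 or Csf1r with Mcpt8, 4 held all 3 kinds and 1 combined Elane or Prtn3 with Mcpt8. The 34 had a median depth of 44151.5 UMIs. Cells with F13a1 or Csf1r alone had 36449, those with Elane or Prtn3 alone 28166.5 and those with Mcpt8 alone 23114.5. Deeper cells reach 2 UMIs more easily, and the part of depth in the overlap was not tested. Given to the class with the most UMIs, the members became 48 with F13a1 or Csf1r, 20 with Elane or Prtn3 and 10 with Mcpt8. Within the 20, no cell held more than 3 Mcpt8 UMIs. Monocyte genes were the most frequent class in each library: Ga held 8 such cells, Gb 11, Gc 13, Ha 8 and Hb 8. Elane or Prtn3 led in 1, 5, 5, 5 and 4 cells of the same libraries. These counts are by the class with the most UMIs, and the exclusive count of monocyte cells without the members that also hold T cell genes was 20 in place of 32.

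**Figure D1:**
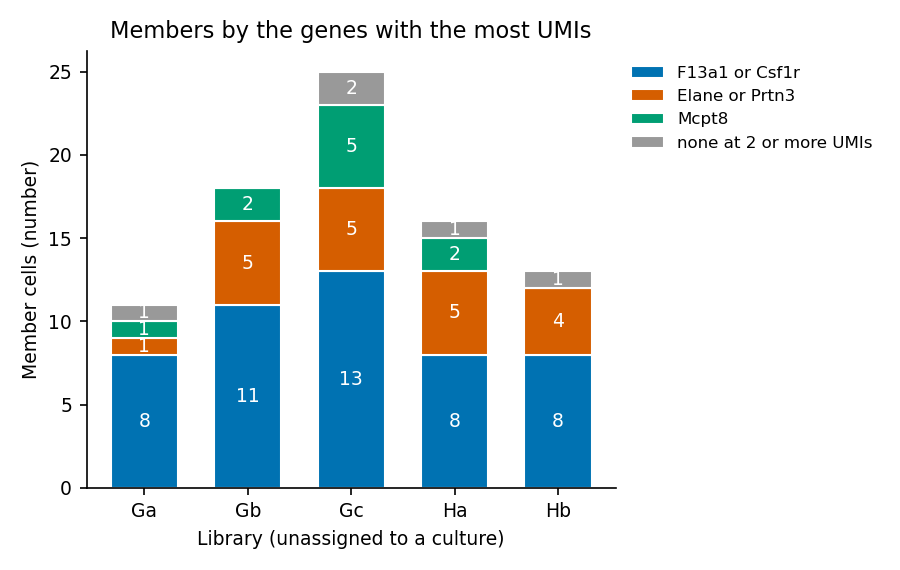
Number of member cells (vertical axis) in each of the 5 unassigned libraries (horizontal axis), split by the class gene with the most UMIs; each segment carries its count. Cells led by F13a1 or Csf1r outnumber the other classes in every library, and Hb has no cell led by Mcpt8.

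**Figure D2:**
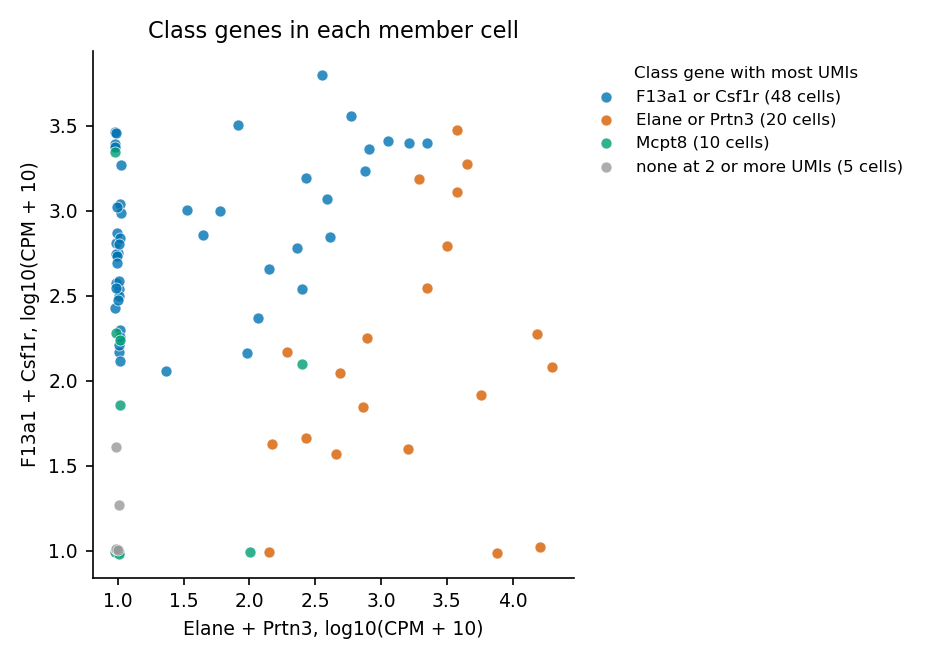
Each of the 83 members by its Elane and Prtn3 level (horizontal axis) and its F13a1 and Csf1r level (vertical axis), both as log10 of CPM plus 10, colored by the class gene with the most UMIs; points are shifted slightly at random. The 25 cells with both kinds of genes and fewer than 2 Mcpt8 UMIs lie away from the low end of both axes.

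Cells with monocyte and macrophage genes were the main component. The 32 cells with F13a1 or Csf1r alone held 4 to 1197 Lyz2 UMIs (median 331), 2 to 45 Csf1r UMIs (median 14.5) and 0 to 130 F13a1 UMIs (median 3.5). F13a1 was at 0 in 8 of them, whereas Csf1r was found in all 32. Of classical monocyte genes, Ccr2 was found in 15 of the 32 (median 0 UMIs), Ly6c2 in 23 (median 3) and Vcan in 21 (median 6). Gpnmb and the macrophage gene Adgre1 were each found in 29, at medians of 62.5 and 4 UMIs. Against the sum of the other 2 single-gene classes, the 10 leading genes were Gpnmb, Rbm47, Ctss, S100a6, Clec4n, F13a1, Pid1, Mpeg1, Psap and Ms4a6c. Gpnmb, a lysosomal membrane glycoprotein of macrophages, reached 2073 CPM, at least 229-fold above the other classes, where it had no UMI. Ctss, the protease cathepsin S that trims the MHC class II invariant chain, stood at 1722 CPM, at least 190-fold above. Psap, the precursor of the lysosomal saposins, stood at 6518 CPM against 63.5 CPM in the other classes.

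Among all 48 cells led by monocyte genes, Ly6c2 and Gpnmb varied widely. Ly6c2, a surface marker of classical monocytes, was at 50 or more UMIs in 13. Gpnmb was at 10 or more UMIs in 29 of the 48, and in 6 of those 13. These limits were set after the values were seen. The highest Ly6c2 counts, 336 in an Hb cell and 333 in an Ha cell, fell in cells that also held 118 and 108 Prtn3 UMIs, 187 and 346 F13a1 UMIs and 63 and 85 UMIs of the proliferation gene Mki67, and neither held Gpnmb. Vcan, a matrix proteoglycan made by classical monocytes, led the 48 cells against the other 2 most-UMI classes at 659 CPM, against 0.797 CPM. The phospholipase Pla2g7 followed at 499 CPM against the same 0.797 CPM, and then came Gpnmb, Clec4n, Cd36, Arhgap24, Emp1, Myof, Lrp1 and Rnf128. The macrophage list stood at 2754 CPM in the 32 cells with F13a1 or Csf1r alone and at 1329 CPM over all members, against 29.0 CPM in T-marker barcodes. Hmox1, the heme-degrading enzyme, led it at 767 CPM over all members, and the F4/80 gene Adgre1 stood at 67.5 CPM. Of its 13 genes, C1qa and Cd5l had no UMI in any member, and C1qb stood at 1.73 CPM. A pair of cells, chosen after their values were seen, held the plasmacytoid dendritic cell gene Siglech (12 UMIs in Gb and 7 in Hb) with 15 and 23 UMIs of the progenitor and dendritic cell receptor Flt3. Another 3 of the 48 cells, also chosen after their values were seen, held 7 to 11 Lyz2 UMIs and 9 to 23 Kit UMIs. The name monocyte does not describe these 5 cells, which held class genes of more than 1 kind. Of all 48 cells, 6 held Cd209a, listed as a dendritic cell gene, at up to 23 UMIs. The MHC class II gene H2-Aa was found in 7 of the 48, at up to 186 UMIs. The dendritic cell list stood at 220 CPM in the 48 cells and 109 CPM in T-marker barcodes. Whether the name monocyte fits all the remaining cells was not tested.

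Elane and Prtn3 alone did not mark 1 kind of cell. Of the 8 cells, 3 held neutrophil precursor genes, with 28, 124 and 405 Elane UMIs, 28, 62 and 211 Prtn3 UMIs, and 32, 61 and 283 Mpo UMIs. The other 5 held Prtn3 at 3 to 14 UMIs, Elane at 0 or 1 and Mpo at 0 to 3. Those 5 held the stem cell factor receptor Kit at 8 to 29 UMIs and Mecom, a transcription factor of hematopoietic stem cells, at 6 to 38 UMIs. The 3 cells with Elane held less of both, at 5 to 7 Kit UMIs and 0 to 6 Mecom UMIs, and the ranges for Mecom touch. A Gc cell among the 5 also held basophil genes, with 79 Cpa3, 23 Ms4a2 and 12 Gata2 UMIs. The leading genes of the 8 cells against the other single-gene classes included 2610307P16Rik, Adgrl4, Hlf, Mecom, Samd12, Selp, BC035044, Adgrg1 and Muc13. This ranking left out genes with over 50% of their UMIs in 1 cell, which the granule genes Elane, Prtn3 and Mpo were here. Hlf, another stem cell factor, was found in 6 of the 8 cells at 265 CPM against 1.47 CPM, and Adgrl4, an adhesion receptor, in all 8 at 1490 CPM against 4.41 CPM. The label of granulocyte precursor therefore does not describe these 5 cells, which are called by their Mecom and Kit UMIs. In all, 9 members had at least 5 Mecom UMIs, found in every library (Ga 1, Gb 2, Gc 3, Ha 2, Hb 1).

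Among the 20 cells led by Elane or Prtn3, Elane ranged from 0 to 839 UMIs (median 17), Prtn3 from 3 to 452 (median 49.5), Ctsg from 0 to 223 (median 68) and Mpo from 0 to 304 (median 39). Mpo and Elane, the first and the third by ratio, stood at 2094 and 2980 CPM, against 18.2 and 57.1 CPM in the cells led by monocyte genes or Mcpt8. The other leading genes were Mrgpra2b, Khdrbs3, Aff2, Vcam1, Hlf, Mgam, Prss57 and Slc4a8. Elane was concentrated in few cells: 14 members with 10 or more Elane UMIs held 99.0% of it. Monocyte genes were also at 2 or more UMIs in 12 of the 20 cells. F13a1 reached 182 UMIs in an Hb cell and 173 in an Ha cell, beside 264 Mpo UMIs in each.

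Basophil-like cells were few. The 4 cells with Mcpt8 alone held 232, 30, 701 and 283 Mcpt8 UMIs in Ga, Gb, Gc and Ha, and no Lyz2, Elane, Prtn3, F13a1 or Csf1r UMI. Prss34, a basophil tryptase, had 432, 1, 585 and 479 UMIs in the same cells, so that 1 of the 4 nearly lacked it. As a class they stood at 14886 CPM of Prss34, against 1.34 CPM in the other single-gene classes. The other leading genes were Cd200r3, Csf1, Alox5, Cyp11a1, Myo1d, Mboat1, Itga2b, Cxcr2 and Hdc, which include a basophil receptor, the growth factor of macrophages, and the leukotriene and histamine enzymes Alox5 and Hdc. With all 10 cells led by Mcpt8, Fcer1a had 0 to 100 UMIs (median 29), the IgE receptor chain Ms4a2 5 to 107 (median 27), the protease Cpa3 5 to 154 (median 77.5) and the transcription factor Gata2 6 to 33 (median 23.5). The cytokine gene Il6 was found in 8 of the 10, at up to 15 UMIs, and stood at 160 CPM against 0.674 CPM in the other most-UMI classes. Of 8 members with at least 2 Il6 UMIs, 6 were in Gc, 1 in Ga and 1 in Ha, and Gc also held 5 of the 10 cells led by Mcpt8. These 8 members included 1 Gc cell led by monocyte genes, at 2 Il6 UMIs. The mast cell list stood at 163 CPM in the 10 cells led by Mcpt8 and 69.6 CPM in the 4 with Mcpt8 alone. It stood at 212 CPM in cells led by Elane or Prtn3, 36.3 CPM in cells led by monocyte genes and 10.3 CPM in T-marker barcodes. In cells with Elane or Prtn3 alone the list was at 439 CPM, so it was not particular to cells led by Mcpt8. Kit led that list in the members, while Cma1, Tpsab1 and Mrgprb1 had no UMI in any member. Cells led by Mcpt8 numbered 1 (Ga), 2 (Gb), 5 (Gc) and 2 (Ha). Hb had 0 of 4016 barcodes, which by a limit of 3 counts allows a share of up to 0.0747%.

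A single Ha cell of 53089 UMIs, assigned by 17 Mcpt8 UMIs, carried eosinophil genes. It held 3807 of the 3809 UMIs of Prg2, the eosinophil major basic protein, found in the members, and all 65 UMIs of Epx, the eosinophil peroxidase. Fcer1a was at 0 in it and Prss34 at 2 UMIs. A Gc cell of 63824 UMIs held 100 Fcer1a, 107 Ms4a2, 154 Cpa3 and 32 Mcpt8 UMIs with 1 Prss34 UMI, 15 Kit UMIs, 17 UMIs of the progenitor antigen Cd34 and 37 Mki67 UMIs. Both cells were chosen after their values were seen.

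S100a8 and S100a9, genes of later neutrophil stages, came almost wholly from 5 cells, which held 99.3% of the S100a8 UMIs and 99.9% of the S100a9 UMIs of all members. In 3 of them no class gene reached 2 UMIs. These held 1955, 1387 and 969 S100a8 UMIs in Ga, Gc and Hb, 1952, 1087 and 1192 S100a9 UMIs, and 119, 8 and 291 UMIs of the granule gene Ngp. Their depths of 13626, 9919 and 10048 UMIs were among the lowest of the members. The other pair, in Gb and Hb, held 2024 and 1110 S100a8 UMIs with 839 and 661 Elane UMIs but 2 and 6 Ngp UMIs. The remaining 2 cells without a class gene were a Gc cell of 112204 UMIs and an Ha cell of 31958 UMIs, and both also held T cell genes.

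**Figure D3:**
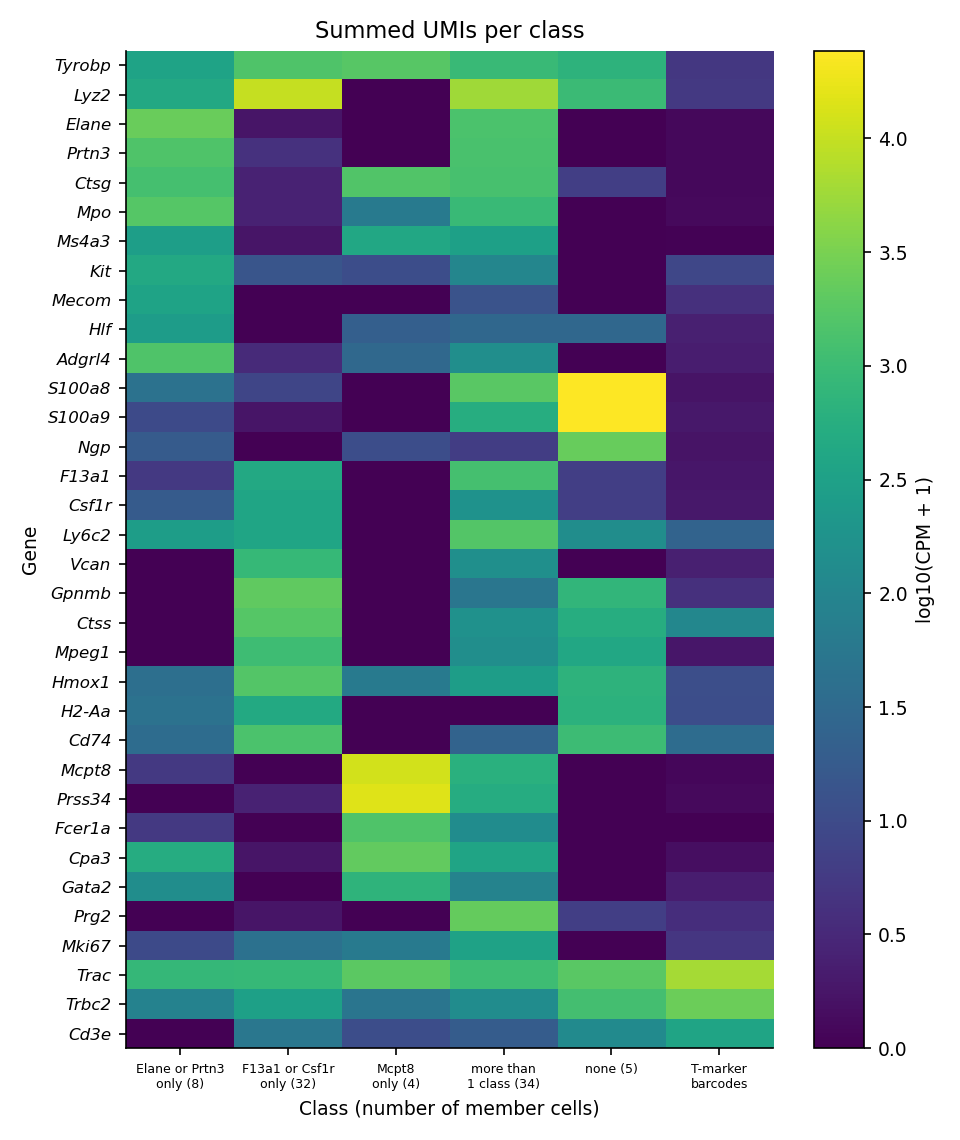
Summed UMIs of 34 genes (rows) in the members by class and, in the rightmost column, in T-marker barcodes, as log10 of CPM plus 1. Elane, Mpo, Kit, Mecom and Adgrl4 are high in the first column, Gpnmb, Ctss and Mpeg1 in the second, Mcpt8 and Prss34 in the third, and S100a8 and S100a9 in the cells with no class gene.

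Set against T-marker barcodes, the members were higher in myeloid genes and lower in T cell genes. Of 12317 genes compared, each with at least 10 UMIs in the members or expected there at the T-marker level, 1634 (13.3%) were at least 4-fold higher in members and 895 (7.27%) at least 4-fold lower, with a median log2 ratio of -0.03. A gene past 4-fold is said to be called higher or lower. The comparison rests on summed cells of 5 unassigned libraries and has no test. The 15 genes with the largest ratios were Elane, Rnase12, Fcer1a, Ctsg, Mcpt8, Prtn3, S100a8, Ms4a2, Cebpe, Chil3, Tgfbi, Ms4a3, Clec5a, Prss34 and Mmp8. The rule itself used Elane, Ctsg, Mcpt8 and Prtn3. Of the others, Cebpe is a transcription factor of granulocyte maturation (25.9 CPM against 0.00976 CPM), Clec5a a Tyrobp-coupled receptor (42.4 CPM against 0.0195 CPM) and Mmp8 a neutrophil collagenase (184 CPM against 0.0878 CPM), each with a log2 ratio above 11: 11.38, 11.08 and 11.03.

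Granule, monocyte and basophil lists were higher in members, but some of their genes had chosen the cells. The primary granule list stood at 4683 CPM in members and 483 CPM in T-marker barcodes, with 9 of 10 genes called higher and Srgn, a proteoglycan that T cells also make, not called (874 against 471 CPM). All 11 secondary and tertiary granule genes were called higher, and 8 of 11 mature neutrophil genes. The secondary and tertiary list was highest in cells led by monocyte genes, at 11668 CPM. It stood at 1942 CPM in cells led by Elane or Prtn3 and 83.0 CPM in those led by Mcpt8. Lyz2 gave 21147 of its 23770 UMIs in the first set and 1442 of 1804 in the second, so the list does not stand for neutrophil granules alone. The classical monocyte list stood at 10030 CPM in members and 183 CPM in T-marker barcodes, with 10 of 12 genes called higher, and the basophil list at 2893 CPM against 38.8 CPM, with 15 of 16. Median log2 ratios were 10.65 for primary granule, 6.63 for classical monocyte and 6.48 for basophil genes. Without the genes that chose the members (an alternative chosen after seeing the data), 6 of 7 primary granule genes, 10 of 10 secondary and tertiary granule genes, 7 of 9 classical monocyte genes and 14 of 15 basophil genes were called higher. These lists then stood at 2337, 1255, 2471 and 2238 CPM in members, against 482, 5.74, 177 and 38.6 CPM in T-marker barcodes. Some secondary and tertiary granule genes came from few cells: Ltf was found in 3 members, Camp in 5 and Ngp in 8. The 5 cells with no class gene held 160 of 161 Ltf UMIs, 154 of 157 Camp UMIs and 418 of 432 Ngp UMIs. In the progenitor list 8 of 11 compared genes were called higher, among them the growth factor receptor chain Csf2rb (232 against 0.839 CPM) and the transcription factor Spi1, which encodes PU.1 (355 against 1.88 CPM), but not Runx1 (831 against 714 CPM) or Myb (180 against 202 CPM). Spi1 was found in all 83 members.

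Fc receptor and oxidase genes were mostly higher in members. Leaving out Tyrobp, which the rule required, all 12 compared Fc receptor and adaptor genes were called higher, among them Fcer1g, the Fc receptor gamma chain (1060 against 14.1 CPM), and the kinases Lyn (519.8 against 17.9 CPM) and Syk (240.4 against 4.70 CPM). Of 6 phagocyte oxidase genes 5 were called higher, with Cybb, the catalytic subunit, at 536.5 against 4.14 CPM, and Rac2, which T cells share, not called (193 against 216 CPM). The myeloid chemokine Ccl9 stood at 261 CPM in members against 0.288 CPM in T-marker barcodes, and Ccl6 at 118 against 0.107 CPM. The inflammatory list had 8 of 12 compared genes called higher, but Ccl5 was not (49.9 against 173 CPM), and Il1b, Il1a and Il12b had too few UMIs to be compared. Of 4 compared suppressive mediators only Vegfa was called higher (41.5 against 9.15 CPM), and Arg1 had 1 UMI in all members.

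Proliferation genes were higher in members, with 12 of 16 called and the list at 1673 CPM against 434 CPM. Mki67 stood at 181 CPM in members and 3.98 CPM in T-marker barcodes, and the topoisomerase Top2a at 212 and 6.73 CPM. The signal came from few cells: 13 members with at least 10 Mki67 UMIs held 89.5% of its UMIs, and they numbered 1 (Ga), 2 (Gb), 3 (Gc), 4 (Ha) and 3 (Hb). Cells of more than 1 class held most of it, at 2896 CPM for the list, against 699 CPM in cells with Elane or Prtn3 alone, 384 CPM in those with F13a1 or Csf1r alone and 1700 CPM in those with Mcpt8 alone. Among the 4 cells with Mcpt8 alone, the Gc cell stood at 3361 CPM, the Ga cell at 867 CPM and the Gb cell at 308 CPM. Only the Gc cell of these 4 held Mki67 or Top2a UMIs.

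MHC class II genes, which present peptide to CD4 T cells, were unevenly spread. The list stood at 1234 CPM in members and 87.5 CPM in T-marker barcodes, with 6 of 7 genes called higher, but 9 cells with at least 5 H2-Aa UMIs held 88.6% of its UMIs. Their H2-Aa UMIs were 153 (Ga), 8 and 21 (Gb), 10, 50 and 116 (Gc), 186 (Ha), and 32 and 132 (Hb). Of the 9 cells, 7 were led by F13a1 or Csf1r, 1 by Prtn3 with Mecom, and 1 had no class gene. The cells with 153, 186 and 116 H2-Aa UMIs also held T cell genes, at 106, 98 and 239 Trac UMIs. Cells with T genes held 54.5% of the list's UMIs, and without them the list stood at 791 CPM over the members. Of 8 compared costimulatory and ligand genes only Cd86 was called higher, at 37.8 CPM in members against 5.06 CPM in T-marker barcodes. The PD-1 ligand gene Cd274 stood at 197 against 92.1 CPM, and Cd80 at 17.9 against 5.63 CPM.

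Interferon response genes ran the other way. The list stood at 557 CPM in members and 1498 CPM in T-marker barcodes, with 7 of 20 compared genes called lower (Ifit1, Ifit2, Ifit3, Usp18, Gbp4, Igtp and Iigp1), none called higher and a median log2 ratio of -1.63. By library, the members of Ga reached 838 CPM, Gb 394, Gc 741, Ha 395 and Hb 376, and T-marker barcodes 1905, 853, 2237, 789 and 868 CPM. For both kinds of cells the highest values were those of Ga and Gc. Every library had members with T genes, numbering 2 of 11, 1 of 18, 7 of 25, 5 of 16 and 4 of 13 from Ga to Hb. When all 19 such members were left out, an alternative chosen after seeing the data, the member values became 429, 407, 413, 337 and 288 CPM. Single members of the 5 libraries overlapped, with medians of 508, 298, 330, 365 and 282 CPM over all members. The 19 cells held 51.4% of the list's UMIs and 29.0% of all member UMIs, and the part of T cell RNA in the order of the libraries was not tested.

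Cd274 varied between libraries and between cells. Its level was 291 CPM (Ga), 136 (Gb), 347 (Gc), 82.2 (Ha) and 59.4 (Hb) in all members, and without the cells with T genes 159, 136, 292, 25.7 and 94.9 CPM. The mean over cells without T genes was 160.0, 164, 295, 31.3 and 124 CPM, so the order of Ga and Gb depended on the weight of the cells. T-marker barcodes stood at 134, 33.2, 155, 31.5 and 31.2 CPM in the same libraries. Leaving out the 1 cell with the most Cd274 UMIs of each library gave 238, 81.2, 283, 60.1 and 34.02 CPM, so the values of Gb and Hb rested most on 1 cell. Cells of the libraries overlapped: without T genes, the cells of Ga spanned 40.6 to 381 CPM, Gb 0 to 1194, Gc 0 to 907, Ha 0 to 70.0, and Hb 0 to 641. Gbp2, an interferon-induced GTPase, stood at 59.1, 6.57, 64.7, 11.0 and 13.4 CPM in members, and at 27.9, 6.98, 15.5, 6.42 and 11.4 CPM without cells with T genes. The transcription factor Irf1 stood at 177, 37.8, 118, 47.9 and 63.3 CPM, and at 91.9, 40.1, 69.9, 41.7 and 60.7 CPM without them.

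**Figure D4:**
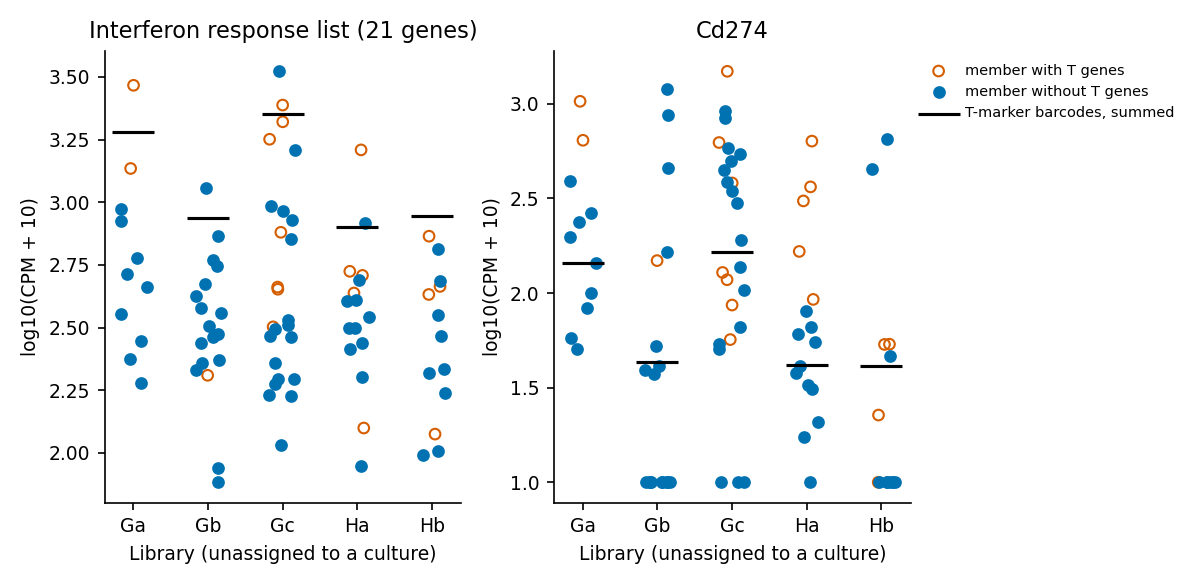
Interferon response list (left) and Cd274 (right) in each member by library, as log10 of CPM plus 10; open symbols are members that also hold T cell genes, filled symbols are the others, and black bars give the summed level of T-marker barcodes. In Ga and Gc the bars are higher than in the other libraries, while the filled symbols of all 5 libraries overlap.

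T cell RNA was present in the members. At least 2 UMIs of at least 2 of Cd3d, Cd3e, Cd3g and Trac were found in 19 of them, namely 2 (Ga), 1 (Gb), 7 (Gc), 5 (Ha) and 4 (Hb). By most UMIs these were 14 of the 48 cells led by monocyte genes, 3 of the 20 led by Elane or Prtn3, none of the 10 led by Mcpt8 and 2 of the 5 without a class gene. All 12 T cell genes were called lower in members, but 6 of them had chosen the T-marker barcodes. The other 6 were also called lower, and stood at 378.5 CPM in members and 3160 CPM in T-marker barcodes. Trac, the T cell receptor alpha constant gene, nevertheless had a UMI in all 83 members. In the 42 members with no Cd3d, Cd3e or Cd3g UMI, Trac had 1 to 244 UMIs (median 17), at a median of 559 CPM, against a median of 5760 CPM in T-marker barcodes.

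The ratio of Trac to Trbc2, the beta chain constant gene, differed between these sets. It was 9.87 in the 42 members with no Cd3 UMI (1273 Trac and 129 Trbc2 UMIs). In the 22 members with a Cd3 UMI but without T genes it was 7.43 (765 Trac and 103 Trbc2 UMIs). Of these, 1 Gb cell held 236 Trac and 10 Trbc2 UMIs, so this value rested in part on 1 cell. The ratio was 2.43 in the 19 members with T genes, against 2.46 in T-marker barcodes. In the 42 cells without a Cd3 UMI, Tcf7, a T cell transcription factor, had 4 UMIs and Cd4 had 3. Il7r, another gene of the T cell list, had 106 UMIs in them, at 75.1 CPM against 811 CPM in T-marker barcodes. Since the sets were defined by Cd3 and Trac UMIs, the ratio is a description. The highest Trac counts among cells with at most 1 Cd3 UMI were 236 and 244, in the pair of Siglech cells named above. With every cell thinned to 1000 UMIs, the expected share of cells with a Trac UMI was 49.4% of members and 97.4% of T-marker barcodes, and with a Cd3e UMI 2.87% of members and 30.4% of T-marker barcodes. Without thinning, Trac was found in 100% and 99.9%, and Cd3e in 31.3% of members and 89.1% of T-marker barcodes, at median depths of 36200 and 8378.5 UMIs.

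**Figure D5:**
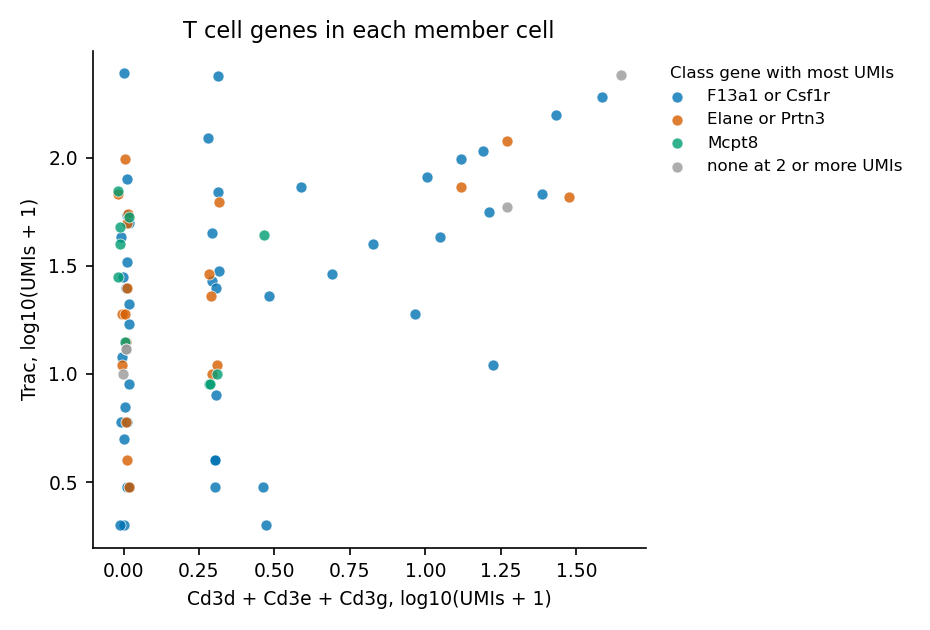
Trac UMIs (vertical axis) against the summed Cd3d, Cd3e and Cd3g UMIs (horizontal axis) in each of the 83 members, both as log10 of UMIs plus 1, colored by the class gene with the most UMIs; points are shifted slightly along the horizontal axis. Trac is found in every member, including the 42 at 0 on the horizontal axis, while cells led by Mcpt8 hold few Cd3 UMIs.

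Class genes were rare in T-marker barcodes. With the same thinning the expected share with Tyrobp was 62.6% of members and 0.246% of T-marker barcodes, with Lyz2 63.4% and 0.368%, and with Mcpt8 10.2% and 0.0186%. Unthinned, Tyrobp was found in 100% and 1.43%, Lyz2 in 89.2% and 2.56%, and Mcpt8 in 21.7% and 0.190%. Hemoglobin RNA from red blood cells took a smaller share of the UMIs of members: 4 of 6 compared erythroid genes were called lower. The expected share with Hbb-bs was 1.80% of members and 3.903% of T-marker barcodes after thinning, and the share was 50.6% and 23.8% without it. Markers of the cultured fibroblasts stayed near the bottom in both, with the list at 14.99 CPM in members and 19.4 CPM in T-marker barcodes, and the collagen genes Col1a1 and Col3a1 at 1.15 and 0.577 CPM in members. The B cell gene Cd79a had 4 UMIs in the members. Cdh1, listed as an epithelial gene, stood at 363 CPM in the cells led by Mcpt8 and had no UMI in the other most-UMI classes, while Epcam had none in any member.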

How the data were processed

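The deposited files hold 2 droplet matrices of whole-number UMI counts per gene and barcode, as raw counts per the file headers, which name version 7.1.0 of the matrix software. Cell Ranger 6.0.0 and the mm10 build are listed in the submitters' processing notes, and the barcode calls were the authors'. Each matrix combined several libraries, and the 5 barcode suffixes were kept as unassigned libraries.

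Barcodes were filtered at 1000 UMIs, 300 genes and 10% mitochondrial UMIs. UMIs were summed over each set of cells and scaled to that set's total (CPM), and genes with at least 10 UMIs in the members, or expected there at the level of the other set, were compared with T-marker barcodes (2 or more of Cd3d, Cd3e, Cd3g, Trac, Trbc2 and Lck). A 4-fold ratio was used as the call, because each condition had 1 sample and the libraries were unassigned, so no test was made. Intervals are 95% exact Poisson for counts and Clopper-Pearson for shares. Shares of cells with a UMI are also given after thinning to 1000 UMIs, as the mean over cells of the hypergeometric chance of at least 1 UMI. A count of 0 was given a floor of 3 counts.

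Leading genes of a class are the 10 with the largest ratio to the other classes, among genes with at least 20 UMIs, found in at least 3 cells and with no cell holding over 50% of the UMIs. For the members against T-marker barcodes they are the 15 largest with at least 50 UMIs. List examples are the genes with the most UMIs in the members. Other genes and single cells named in the text were chosen after their values were seen. A few genes that these rules name are not reported here. The members and gene lists were chosen with earlier results of these data known. No doublet caller was run. Members that also hold at least 2 UMIs of at least 2 of Cd3d, Cd3e, Cd3g and Trac were left out as an alternative, beside other thresholds, scalings and libraries left out. The scripts were tested on simulated data. Promoters came from RefSeq (GRCm38.p6) and gene positions from GENCODE M21. Python 3.11.15, numpy 2.4.6, pandas 2.3.3, SciPy 1.17.1 and matplotlib 3.10.9 were used.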

Additional observations from a re-analysis of the deposited data

How the results depend on the processing

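Requiring 1 UMI of a class gene left 3 cells with Elane or Prtn3 alone and 3 with no class gene, and assigning cells by most UMIs gave 20 led by Elane or Prtn3 and 10 led by Mcpt8. Without the members with T genes, 20 cells held F13a1 or Csf1r alone and 3 no class gene. The list levels then became 10842 CPM (classical monocyte), 3954 (basophil), 791 (MHC class II) and 381 (interferon response). With each cell weighted equally they were 4009 CPM (primary granule), 9279 (classical monocyte), 4246 (basophil) and 1470 (MHC class II). Without the deepest member they were 4772, 9920, 3007 and 1279 CPM for the same 4 lists. Without the genes that chose the members, the primary granule, classical monocyte and basophil lists stood at 2337, 2471 and 2238 CPM. A 2-fold limit gave 2832 genes higher and 2426 lower. Leaving out each library in turn gave 58 to 72 members, with 22 to 27 of F13a1 or Csf1r alone, 6 to 8 of Elane or Prtn3 alone, 3 to 4 of Mcpt8 alone, 24 to 30 of more than 1 class and 3 to 5 of none. It moved the primary granule list between 3834 and 5052 CPM, classical monocyte between 9343 and 11031, basophil between 1966 (without Gc) and 3359, MHC class II between 1090 and 1388, and interferon response between 475 and 607. The eosinophil list fell to 6.405 CPM without Ha. Leaving out libraries for the member count, the lists without the genes that chose the members, and the by-library interferon alternatives were chosen after seeing the data. The causes were not tested. No paired analysis was possible because the libraries are unassigned and each condition had 1 sample. The rarer classes rest on 4 to 20 cells.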
